A study of Mus musculus with 18 samples.

Results

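The mitochondrial ribosomal protein genes were taken as the rows of the liver count table whose symbol was Mrpl or Mrps, followed by a number and at most 1 lower-case letter. This rule found 78 of 55487 rows, 49 with a large subunit (Mrpl) and 29 with a small subunit (Mrps) symbol, and left out 6 pseudogene rows such as Mrpl27-ps. The livers came from male C57BL/6J mice, obtained young, that received an adeno-associated virus by injection 1 week before 16 weeks of diet. CON-GFP mice received the GFP virus and a purified control diet. FPC-GFP mice received the GFP virus and a high-fat diet with added fructose, palmitate and cholesterol. FPC-LIPA mice received that diet and a virus carrying human LIPA, the gene of lysosomal acid lipase. Mice on the FPC diet also drank water with fructose and glucose, so the diet comparison covers food and water together. Each group had 6 livers, 1 library per mouse. Both viruses used the TBG promoter, which is active in hepatocytes, so every control liver also carried a virus and no group was untreated. The transgene was human and had no row of its own in the mouse table. Mouse Lipa lay at 208 to 309 CPM (counts scaled to the library size) in CON-GFP. It lay at 235 to 406 CPM in FPC-GFP and 243 to 391 CPM in FPC-LIPA, and these ranges overlapped. Because the transgene was human, mouse Lipa cannot check the label.

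Mitochondria keep their own ribosome, which translates only the few inner membrane proteins of the respiratory chain and ATP synthase that the mitochondrial genome encodes. Its ribosomal RNAs are made inside the organelle, whereas all of its proteins come from nuclear genes, are made in the cytosol and are imported. The small subunit binds the mRNA and reads the codons, and the large subunit forms the peptide bonds and sits against the inner membrane. Hepatocytes are rich in mitochondria. The symbol does not always give the position: the products of Mrps30 and Mrps18a sit in the large subunit, and that of Mrps36 is a subunit of 2-oxoglutarate dehydrogenase.

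Total counts ranged from 16632146 to 37739301 per library. In mixed liver RNA, fewer cells of a type and less RNA per cell cannot be told apart. Of the FPC-LIPA libraries, 36, 37 and 39 stood apart: cytosolic ribosomal protein genes took 6.42%, 7.92% and 8.09% of their counts, against 1.43% to 2.93% in the other 15 libraries. Those 3 also had the highest red blood cell marker sums (Hba-a1 and Hbb-bs), at 1423, 1488 and 2204 CPM, against 123 to 702 elsewhere. FPC-LIPA 31, 33 and 34 also lay above every FPC-GFP library on both measures. Their cytosolic ribosomal protein shares were 2.15% to 2.93%, against 1.43% to 1.79% in FPC-GFP and 1.74% to 2.52% in CON-GFP. Their red blood cell sums were 324 to 702 CPM, against 123 to 270 in FPC-GFP and 125 to 383 in CON-GFP. Library 37 further had its own place in the sequencing sample sheet outside the run of the other FPC-LIPA libraries, and a title that reads 37b. FPC-LIPA results are followed by values without 36, 37 and 39, for the counts and medians, the subunits, the other gene lists and single genes. The hepatocyte markers (Alb, Apoa1, Ttr, Hnf4a and Serpina1c) summed to 63465 to 93573 CPM in CON-GFP, 54548 to 81255 in FPC-GFP and 44947 to 70968 in FPC-LIPA, and none was at 0. Of the 5, 2 fell in FPC-LIPA against FPC-GFP, and none without libraries 36, 37 and 39.

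The genes lay on 17 chromosomes, and 69 of the 78 matched a RefSeq promoter window of the GRCm38.p6 build, which runs from 250 bases before to 50 bases after a gene's start. Windows were searched on both strands for motifs of factors known for housekeeping and mitochondrial genes. The NRF1 motif GCGCANGCG was in the windows of 16 of the 69 genes (23.2%), against 7.03% of 27025 genes with a window. The ETS motif CCGGAAG was in 26 (37.7%, against 9.93%), the YY1 motif AAGATGGCG in 8 (11.6%, against 1.64%) and the SP1 motif GGGCGG in 34 (49.3%, against 38.2%). The TATA box TATAAA was in 5 (7.25%, against 15.7%). The windows had a median GC content of 58.7%, against 52.7% over all windows. A match describes the letters of a window and no binding was measured. Among the genes that passed higher in FPC-LIPA against FPC-GFP, 8 of 30 held the NRF1 motif and 13 of 30 the ETS motif, and among the other genes with a window 8 of 39 and 13 of 39 did. Windows of 5 genes are shown, with motif matches in capitals and all other bases in lower case. Mrpl12 is shown as the gene with the most RNA (chr11:120484387-120484686, plus strand), Mrpl33 as the gene with the largest fold change (chr5:31613701-31614000, plus strand) and Mrps5 as one of the few that fell (chr2:127587176-127587475, plus strand). Mrpl46 (chr7:78783040-78783339, minus strand) and Mrps11 (chr7:78782881-78783180, plus strand) are a pair of opposite strands whose windows share 141 bases, and whose levels are compared further on.
Mrpl12: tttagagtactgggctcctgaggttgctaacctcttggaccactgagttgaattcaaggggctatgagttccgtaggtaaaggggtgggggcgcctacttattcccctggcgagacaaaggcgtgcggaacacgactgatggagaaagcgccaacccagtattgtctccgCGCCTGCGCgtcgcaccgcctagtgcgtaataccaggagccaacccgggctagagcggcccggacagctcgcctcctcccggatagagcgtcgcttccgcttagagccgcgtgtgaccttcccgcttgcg
Mrpl33: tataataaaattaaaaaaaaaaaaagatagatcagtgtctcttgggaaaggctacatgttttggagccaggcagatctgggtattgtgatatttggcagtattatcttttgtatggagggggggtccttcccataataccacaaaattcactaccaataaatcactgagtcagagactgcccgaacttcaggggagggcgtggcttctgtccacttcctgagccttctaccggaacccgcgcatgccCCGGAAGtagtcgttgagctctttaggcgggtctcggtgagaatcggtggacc
Mrps5: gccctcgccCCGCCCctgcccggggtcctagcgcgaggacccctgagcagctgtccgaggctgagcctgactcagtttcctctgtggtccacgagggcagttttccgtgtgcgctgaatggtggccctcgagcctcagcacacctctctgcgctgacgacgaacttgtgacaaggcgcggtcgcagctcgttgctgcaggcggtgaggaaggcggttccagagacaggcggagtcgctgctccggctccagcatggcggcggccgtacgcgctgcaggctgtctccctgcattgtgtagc
Mrpl46: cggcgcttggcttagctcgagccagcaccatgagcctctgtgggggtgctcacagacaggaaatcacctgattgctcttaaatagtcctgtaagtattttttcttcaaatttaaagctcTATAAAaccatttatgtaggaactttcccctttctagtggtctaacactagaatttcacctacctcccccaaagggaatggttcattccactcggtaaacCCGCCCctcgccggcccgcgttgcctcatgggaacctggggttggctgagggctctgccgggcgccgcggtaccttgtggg
Mrps11: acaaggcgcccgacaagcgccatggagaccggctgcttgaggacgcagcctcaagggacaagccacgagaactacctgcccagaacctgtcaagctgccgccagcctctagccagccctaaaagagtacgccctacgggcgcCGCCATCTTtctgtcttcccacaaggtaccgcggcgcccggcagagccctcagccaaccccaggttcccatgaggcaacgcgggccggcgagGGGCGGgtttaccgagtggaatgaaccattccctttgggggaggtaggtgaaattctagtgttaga
The capitals mark an NRF1 match in Mrpl12, an ETS match across the RefSeq start of Mrpl33 and an SP1 match in Mrps5. They also mark a TATA box and an SP1 match in Mrpl46, and a YY1 and an SP1 match in Mrps11.

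The RNA of these genes was moderately abundant. Together they took 0.266% to 0.317% of the counts in CON-GFP, 0.258% to 0.311% in FPC-GFP and 0.292% to 0.553% in FPC-LIPA. Per kilobase of exon, the level was highest for Mrpl12, at 146 CPM per kilobase over the 18 libraries. Its product is part of the stalk of the large subunit and also binds the mitochondrial RNA polymerase. Mrpl14 followed at 112 CPM per kilobase, then Mrps21, a small subunit protein, at 71.7, Mrpl27 at 62.3 and Mrpl54 at 57.7. The spread between genes was wide: Mrps25 and Mrpl19 lay at 2.21 and 2.48 CPM per kilobase. Mrpl53 (chr6:83109040-83109939, plus strand) had 0 counts in all 18 libraries, which allows up to 0.0795 to 0.180 CPM per library from counting alone. Its exons overlap the gene Gm42688 on the same strand, which had 0 to 47 counts, and the antisense gene Ccdc142os, which had 10 to 45. Whether the counting of overlapping genes set this 0 was not tested. The filter on low counts removed Mrpl53 and kept the other 77 genes in each comparison. Exons of 33 of the 78 genes overlapped another gene on either strand, so their counts may be shared with it.

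The first comparison, FPC-GFP against CON-GFP, asked what the diet did to these genes. After normalization by the trimmed mean of M values (TMM), 16 of 77 genes fell and none rose at an adjusted p below 0.05 in edgeR's quasi-likelihood test. At an unadjusted p below 0.05, 2 were higher and 26 lower, and DESeq2 called 21 lower and 0 higher. Over all 14307 genes tested, 10.9% fell and 12.9% rose. No gene passed with a fall of 2-fold or more, against 2.44% of all genes. The median log2 fold change was -0.15 against 0.01 over all genes. The direction of the list depended on the scaling. With library size alone the median was 0.04, with 5 genes higher and 4 lower, and the median of all genes was 0.21. Relative to the median of all genes the list lay at -0.17 under both scalings. When all 18 libraries shared 1 estimate of the spread only 1 gene passed, and with sample sheet numbers 55 to 68 alone (4 CON-GFP and 5 FPC-GFP libraries) 6 did. Without FPC-GFP 19 the count was 10. Over all genes these settings gave 475, 884 and 1096 lower, against 1560 in the main fit.

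Mrpl18 (chr17:12911349-12916345, minus strand), whose product also takes part in import of 5S ribosomal RNA, fell the most. Its CON-GFP levels were 68.7 to 101 CPM (median 78.3), its FPC-GFP levels 41.9 to 54.7 CPM (median 46.8), and the groups did not overlap. The log2 fold change was -0.75 ± 0.12 (SE, n = 6 per group; edgeR adjusted p = 0.000877), and it passed under each of the 22 alternatives, with log2 fold changes from -0.80 to -0.55. Mrpl12, at 180 ± 10.9 CPM on the control diet, fell to 134 ± 16.8 CPM (SD, n = 6; log2 fold change -0.42 ± 0.10, edgeR adjusted p = 0.00940). Mrpl33 fell from 19.3 to 12.9 CPM and Mrpl23, a protein at the exit of the peptide tunnel, from 38.6 to 25.8 CPM. Their log2 fold changes were -0.58 each. Falls of -0.55 to -0.47 on the same scale were seen for Mrps18c, Mrpl13, Mrpl30, Mrpl27, Mrpl20 and Mrpl41. Mrpl11, another stalk protein, fell by 0.36 on the log2 scale, and Mrpl58, a peptidyl-tRNA hydrolase that frees stalled ribosomes, by 0.35. Of the 77 genes, 12 had every FPC-GFP library below every CON-GFP library, against 4.82% of all genes. They were Mrpl11, Mrpl12, Mrpl13, Mrpl18, Mrpl20, Mrpl23, Mrpl24, Mrpl27, Mrpl30, Mrpl33, Mrps10 and Mrps24. In the opposite direction 1 gene did not overlap, against 5.61% of all genes: Mrps2, named after its values were seen, with FPC-GFP libraries at 37.8 to 44.4 CPM and CON-GFP libraries at 34.0 to 37.5 CPM (edgeR adjusted p = 0.0996).

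By subunit, 11 of 48 large and 5 of 29 small subunit genes fell with the diet (22.9% and 17.2%), against 10.9% of all genes. The median log2 fold changes were -0.16 and -0.12. The summed level of the 49 large subunit genes was 2213 ± 117 CPM for the control diet and 1888 ± 192 CPM for the FPC diet, and that of the 29 small subunit genes 885 ± 36.0 and 799 ± 68.7 CPM (SD, n = 6). Both pairs of ranges overlapped. The ratio of the large to the small sum was 2.44 to 2.57 in CON-GFP and 2.27 to 2.42 in FPC-GFP, with no overlap. With Mrps30 and Mrps18a counted in the large subunit and Mrps36 left out, the ratio was 2.70 to 2.88 and 2.56 to 2.71, and these ranges did overlap.

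**Figure D1:**
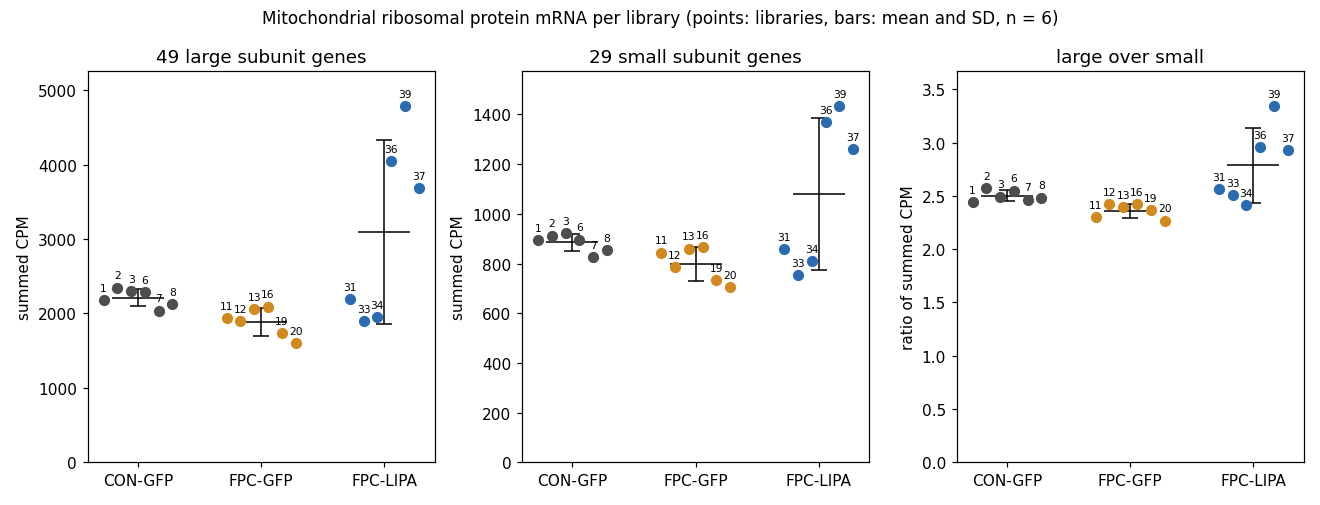
Summed CPM of the 49 large subunit genes (left), of the 29 small subunit genes (middle) and their ratio (right) in each of the 18 libraries; points are libraries with their mouse numbers, bars are the mean and SD of 6. Libraries 36, 37 and 39 of FPC-LIPA lie above every other library in all 3 panels.

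The comparison of FPC-LIPA with FPC-GFP asked what LIPA overexpression did on the FPC diet. Of 77 genes, 33 rose and 2 fell at an adjusted p below 0.05, against 14.4% and 6.87% of 14620 genes tested. At least 2-fold rises were seen for 22 genes, against 10.3% of all genes. The median log2 fold change was 0.60, against 0.04 over all genes. DESeq2 called 39 higher and 3 lower. The calls were lost without the 3 libraries that stood apart. These were picked from the same data, and leaving them out also makes the group smaller. The loss is therefore not an independent check. Without FPC-LIPA 36, 37 and 39 no gene passed in either direction (12 higher and 2 lower at an unadjusted p below 0.05), and the median was 0.05. The 33 genes that rose then had log2 fold changes of 0.03 to 0.41. Calls over all genes also dropped there, to 169 higher and 17 lower of 15246, from 2098 and 1004 of 14620. Within sample sheet numbers 55 to 68 (5 libraries in each group) none of the 77 genes passed either. At an unadjusted p below 0.05, 34 of them were higher and 5 lower, while their median stayed at 0.49. Over all 14736 genes tested there, 100 rose and 4 fell. Leaving out single libraries also mattered: 13 of the 77 genes rose without FPC-LIPA 36, 13 without 39 and 20 without 37. Without FPC-GFP 11, 12, 13, 16, 19 or 20 the number was 19, 19, 20, 21, 20 or 14. The number that fell was 4 without FPC-LIPA 33, 3 without 34 and 1 without any other of the 12 libraries. Over all genes the number that rose was 886, 993 and 1088 without FPC-LIPA 36, 39 and 37. It was 1023 to 1383 without single FPC-GFP libraries. The number that fell over all genes was 2412 without FPC-LIPA 33, 1463 without 34 and 206 to 879 without any other library. This comparison shares the FPC-GFP libraries with the diet comparison.

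The pattern by library was uneven. The summed level of all 78 genes was 3056, 2648 and 2763 CPM in FPC-LIPA 31, 33 and 34. Library 31 lay above the FPC-GFP libraries (2303 to 2958 CPM), and 33 and 34 lay within their range. CON-GFP libraries spanned 2866 to 3260 CPM. The summed level was 5415, 4951 and 6212 CPM in FPC-LIPA 36, 37 and 39. In these 3 libraries 59, 50 and 57 of the 78 genes lay above the highest FPC-GFP library, and 9, 21 and 11 lay below the lowest. In 31, 33 and 34, 32, 8 and 14 lay above and 9, 13 and 10 below. Both directions thus occurred in each of the 6 libraries. The number above was larger in 36, 37 and 39 than in any of the other 3, while the number below was about as large in 31, 33 and 34 as in 36 and 39.

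**Figure D2:**
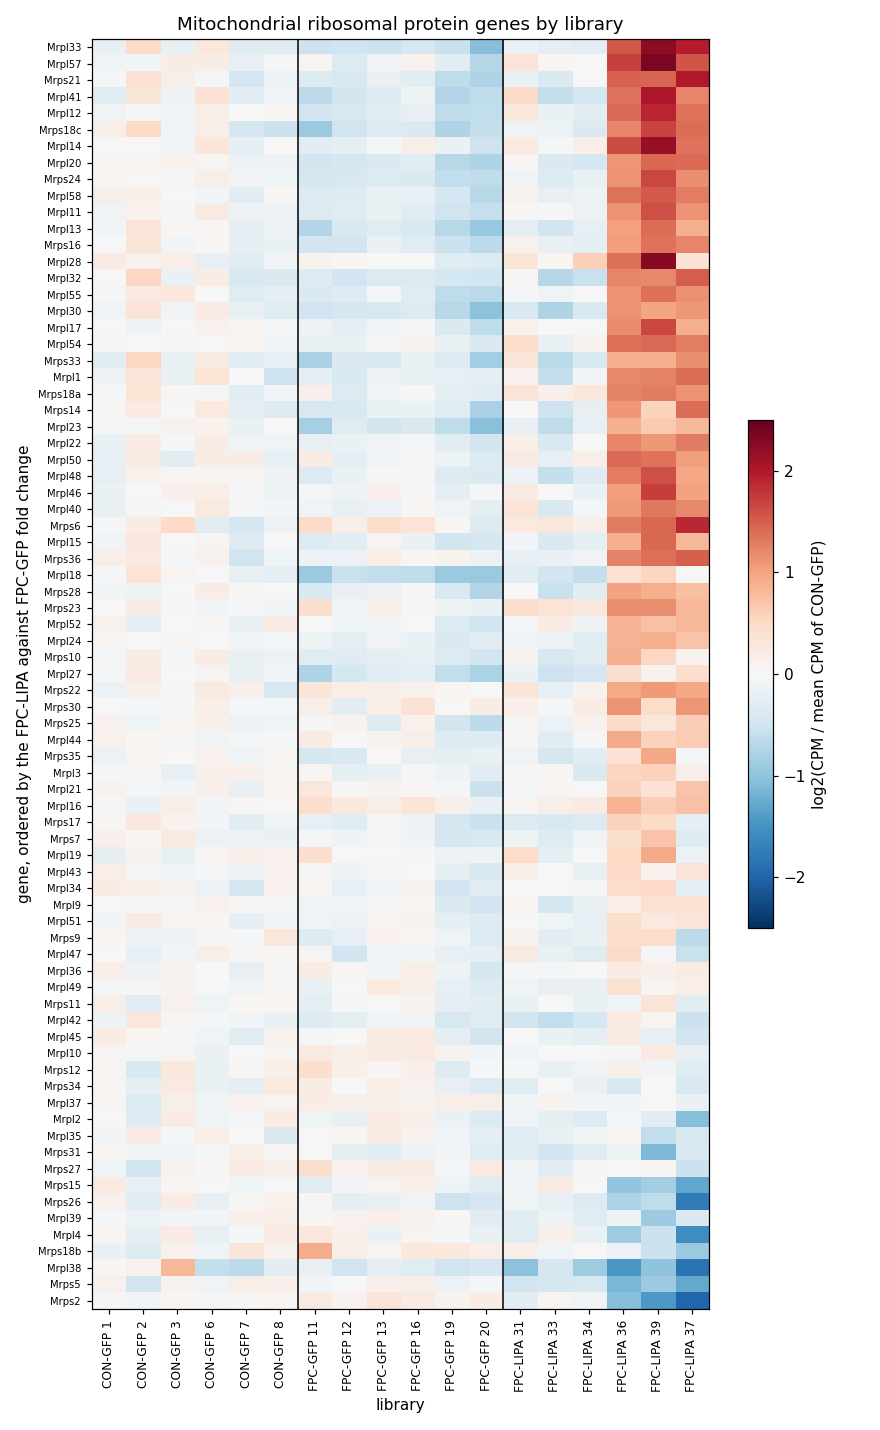
Level of each of 77 genes (rows, ordered by the fold change of FPC-LIPA against FPC-GFP) in the 18 libraries (columns), as log2 of its CPM over the mean CPM of CON-GFP; red is higher and blue lower, and the colour scale ends at 2.5 in either direction. Columns 36, 39 and 37 of FPC-LIPA are red over most rows and blue at the bottom, where Mrpl38, Mrps5 and Mrps2 lie.

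Among the genes that rose, Mrpl33, which encodes a small protein of the large subunit, changed the most. It lay at 9.26 to 14.4 CPM (median 13.4) in FPC-GFP, and at 17.3, 16.5 and 16.0 CPM in FPC-LIPA 31, 33 and 34 and 56.4, 74.8 and 90.3 CPM in 36, 37 and 39. All 6 FPC-LIPA libraries were above all FPC-GFP libraries, and the 3 last stood far above the rest. The log2 fold change was 1.90 ± 0.44 (SE, n = 6 per group; edgeR adjusted p = 0.0162), and 0.38 (adjusted p = 0.169) without those 3. Its promoter window holds the ETS match shown above. In GENCODE M21 the gene begins at chr5:31596935, upstream of that window. The exons of Mrpl33 overlap Gm43809 on the same strand. Mrpl12 lay at 116 to 156 CPM in FPC-GFP, at 218, 160 and 150 CPM in FPC-LIPA 31, 33 and 34 and at 484, 459 and 675 CPM in 36, 37 and 39. The log2 fold change was 1.50 ± 0.35 (SE, n = 6 per group; edgeR adjusted p = 0.0174), and 0.40 (adjusted p = 0.175) without those 3. Stalk genes did not move alike: Mrpl11 rose by a log2 fold change of 1.22, with no overlap between groups (33.4 to 113 against 24.8 to 32.8 CPM), whereas Mrpl10 had a log2 fold change of -0.09 and an edgeR adjusted p of 0.658. These were 0.32 and -0.14 without the 3 libraries. Mrpl11, Mrpl17 and Mrpl33 were the 3 genes whose FPC-LIPA libraries all lay above the FPC-GFP libraries, against 3.36% of all genes.

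Other large rises were those of Mrpl57 (log2 fold change 1.55), Mrps21 (1.53), Mrpl41 (1.52), Mrps18c (1.49), Mrpl14 (1.42) and Mrpl20 (1.32). Without FPC-LIPA 36, 37 and 39 these 6 lay at 0.34, 0.25, 0.38, 0.37, 0.31 and 0.27, and none passed. Mrps21 had 24.8 to 37.0 CPM in FPC-GFP and 32.6 to 169 CPM in FPC-LIPA, with library 37 the highest. In Mrpl57 and Mrpl41 library 39 was the highest, at 147 and 134 CPM. The highest library thus differed between genes. Mrpl58 rose by 1.27 on the log2 scale, from 29.7 to 67.8 CPM, and Mrpl23 and Mrpl18 rose by 1.00 and 0.81. Without those libraries the 3 values were 0.28, 0.26 and 0.33. Mrpl44 and Mrpl3, both of the large subunit, and Mrps22, a small subunit protein, did not pass, with log2 fold changes of 0.48, 0.39 and 0.54. Mrps12, the protein at the decoding centre, lay at -0.11 and Mrps34 at -0.13, and neither passed. The exons of Mrps34 overlap Nme3 on the same strand. Mrps24 rose by 1.31 on the log2 scale (0.27 without the 3 libraries), and Mrps7 and Mrps17, at 0.34 each, did not pass. Mrps24 shares exonic sequence with Urgcp, which had 163 to 1235 counts.

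The genes that fell were Mrps5 and Mrpl38. Mrps5, a protein of the mRNA entry side of the small subunit, lay at 33.8 to 41.4 CPM in FPC-GFP, at 26.9, 27.7 and 28.2 CPM in FPC-LIPA 31, 33 and 34 and at 16.9, 15.4 and 20.0 CPM in 36, 37 and 39. The groups did not overlap, and all 6 FPC-LIPA libraries were low. The log2 fold change was -0.69 ± 0.17 (SE, n = 6 per group; edgeR adjusted p = 0.0180). Without the 3 libraries it was -0.44 (adjusted p = 0.0884). Mrpl38 had 64.6 to 80.7 CPM in FPC-GFP and 25.3 to 68.2 CPM in FPC-LIPA, a log2 fold change of -0.64 ± 0.20 (edgeR adjusted p = 0.0359) that was lost under 16 of 23 alternatives, and that was -0.39 without the 3 libraries. Mrps2, named after its values were seen, had the lowest fold change of all 77 genes, at -0.76 ± 0.27. It fell short of the threshold (edgeR adjusted p = 0.0574; -0.26 without the 3 libraries), although its libraries did not overlap (9.04 to 37.5 against 37.8 to 44.4 CPM). Mrps2 and Mrps5 were the 2 genes with every FPC-LIPA library below every FPC-GFP library, against 4.30% of all genes.

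The 3 genes of the Mrps18 family, which encode related proteins at different places in the ribosome, differed from each other. Mrps18a (large subunit) rose with a log2 fold change of 1.01 ± 0.24 (edgeR adjusted p = 0.0176) and Mrps18c (small subunit) with 1.49 ± 0.35 (adjusted p = 0.0174). Mrps18b lay at -0.50 ± 0.20 (adjusted p = 0.0750). Without FPC-LIPA 36, 37 and 39 the log2 fold changes were 0.39, 0.37 and -0.30, and none passed. In libraries 36, 37 and 39, Mrps18a read 81.0, 74.4 and 84.2 CPM and Mrps18c 40.6, 46.2 and 56.3 CPM, all above the FPC-GFP maxima of 37.5 and 13.9 CPM. Mrps18b read 18.7, 10.8 and 14.3 CPM, below the FPC-GFP minimum of 21.6 CPM. Some values of FPC-LIPA 31, 33 and 34 also passed these FPC-GFP limits. In that order Mrps18a read 43.7, 37.3 and 41.4 CPM, Mrps18c 16.2, 15.9 and 13.7 CPM and Mrps18b 22.9, 19.2 and 20.8 CPM. Mrps18b had 16.4 to 25.5 CPM in CON-GFP. The exons of Mrps18c overlap Gm43511 on the same strand.

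**Figure D3:**
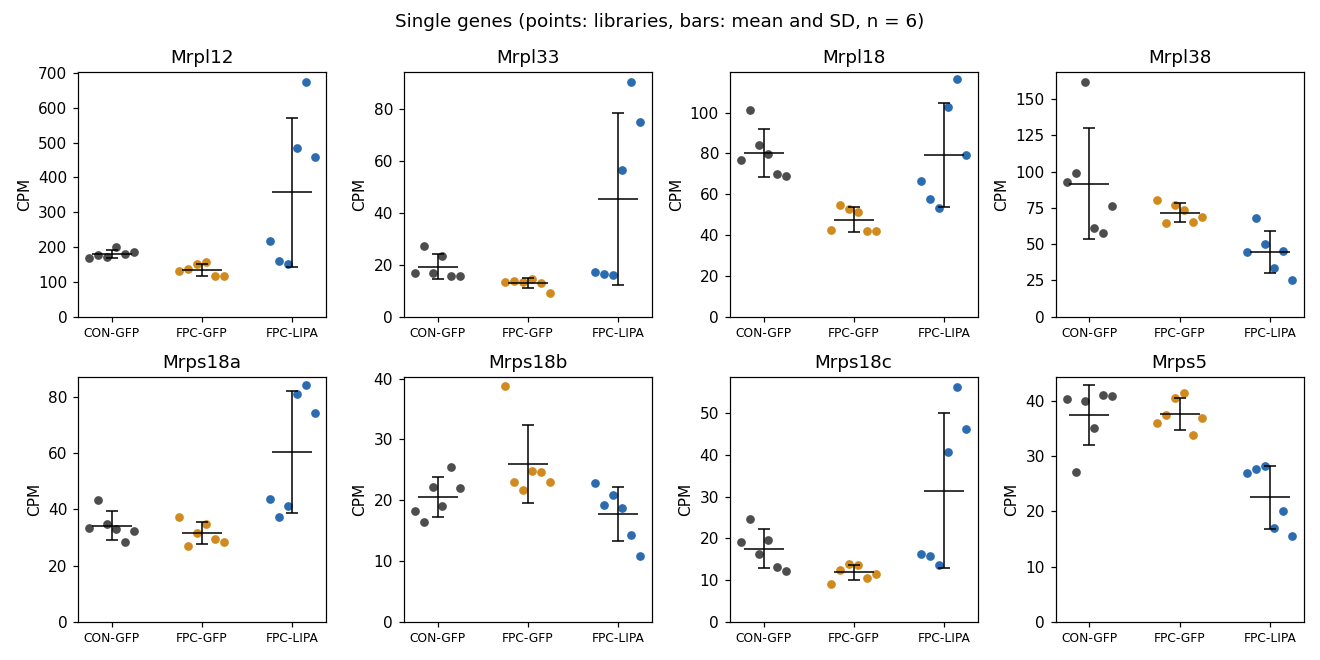
CPM of 8 single genes in the 3 groups; points are libraries, bars are the mean and SD of 6, and each vertical axis starts at 0. In FPC-LIPA the points of Mrpl12, Mrpl33, Mrps18a and Mrps18c split into 3 low and 3 high libraries, while those of Mrps5 all lie below the FPC-GFP points.

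The genes Mrpl46 and Mrps11 start on opposite strands of the same stretch of chromosome 7, and their exons overlap. Mrpl46 rose in FPC-LIPA from 22.6 to 40.8 CPM (log2 fold change 0.93 ± 0.29, edgeR adjusted p = 0.0392). Mrps11 had 17.5 and 18.2 CPM (log2 fold change 0.11 ± 0.15, adjusted p = 0.602). The log2 fold changes were 0.09 and 0.00 without the 3 libraries. In FPC-LIPA 39 Mrpl46 reached 77.5 CPM and Mrps11 23.5 CPM, and in FPC-GFP their highest libraries had 25.5 and 20.1 CPM. The difference between both genes was not tested, and they were chosen for this comparison after their values were seen.

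By subunit, 25 of 48 large and 8 of 29 small subunit genes rose (52.1% and 27.6%), against 14.4% of all genes. In each subunit 1 gene fell (2.08% and 3.45%), against 6.87% of all genes. The medians were 0.75 and 0.51. The medians were 0.09 and 0.02 without FPC-LIPA 36, 37 and 39, and no gene of either subunit passed. With the 2 Mrps genes placed in the large subunit and Mrps36 left out, they were 0.75 and 0.40. Mrps36 itself had a log2 fold change of 0.90 and an edgeR adjusted p of 0.0559, and Mrps30 one of 0.53 and a p of 0.109. The ratio of the summed large to the summed small subunit level was 2.56, 2.51 and 2.42 in FPC-LIPA 31, 33 and 34, and 2.96, 2.93 and 3.34 in 36, 37 and 39. Libraries 31 and 33 lay above the FPC-GFP libraries (2.27 to 2.42), and the second set lay above all 12 GFP libraries. Mrpl12 alone made up 459 to 675 CPM of the large subunit sums of 3689 to 4780 CPM there.

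**Figure D4:**
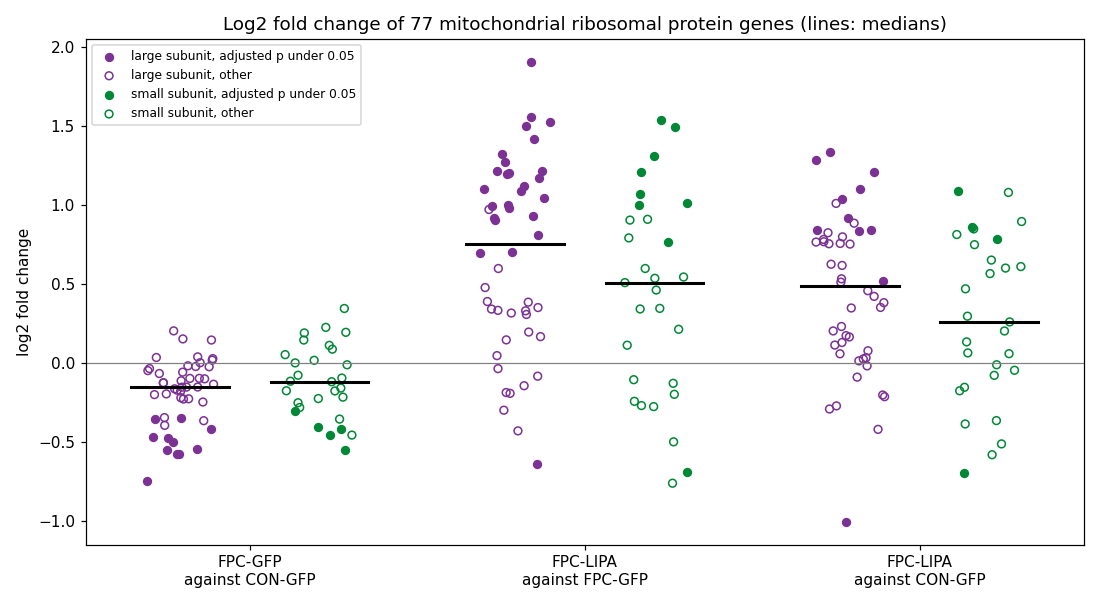
Log2 fold change (vertical axis) of 77 genes in the 3 comparisons, for large (purple) and small (green) subunit symbols; filled points passed an adjusted p of 0.05 and lines are medians. In FPC-LIPA against FPC-GFP the medians are 0.75 and 0.51, and 25 large and 8 small subunit genes are filled above 0.

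FPC-LIPA against CON-GFP, which differ in both diet and virus, gave fewer calls. Of 77 genes, 13 rose and 2 fell at an adjusted p below 0.05, against 14.7% and 8.20% of 14433 genes, and 6 rose and 1 fell by at least 2-fold, against 11.8% and 3.25%. The share that rose (16.9%) was near that of all genes. The median log2 fold change was 0.42, against 0.04 over all genes, and -0.09 without FPC-LIPA 36, 37 and 39, when no gene rose and 1 fell (2 higher and 10 lower at an unadjusted p below 0.05). Within sample sheet numbers 55 to 68 (4 CON-GFP and 5 FPC-LIPA libraries) none rose and 1 fell (11 higher and 2 lower at an unadjusted p below 0.05). Over all genes, 1763 rose and 957 fell of 15113 without the 3 libraries. Within the sheet numbers 934 rose and 468 fell of 14914. Each single library also moved the number that rose. It was 4, 8, 5, 6, 5 or 4 without CON-GFP 1, 2, 3, 6, 7 or 8, and 25, 31 or 28 without FPC-LIPA 31, 33 or 34. It was 5, 5 or 3 without FPC-LIPA 36, 37 or 39. Without FPC-LIPA 33, 4 of the 77 genes fell in place of 2. Over all genes the number that rose was 1533 to 1921 without single CON-GFP libraries. It was 2200, 2732 or 2353 without FPC-LIPA 31, 33 or 34, and 1754, 1734 or 1692 without 36, 37 or 39. Mrpl57 had a log2 fold change of 1.33 ± 0.37 (edgeR adjusted p = 0.0184), the largest among the genes that passed, followed among these by Mrpl33 (1.28), Mrpl14 (1.21), Mrpl28 (1.10), Mrps6 (1.09), Mrpl12 (1.04), Mrpl54 (0.92) and Mrps18a (0.86). Mrps21 (1.08), Mrpl41 (1.01), Mrps18c (0.89) and Mrpl58 (0.88) had changes of that size and did not pass. Mrps6 shares sequence with Slc5a3 on its strand. Without the 3 libraries Mrpl12 lay at -0.02 and Mrpl33 at -0.19, and the 13 genes that rose lay between -0.19 and 0.36. Mrpl18, the gene that fell the most with the diet, had means of 80.1 (CON-GFP) and 79.2 CPM (FPC-LIPA). The FPC-LIPA mean joined unlike libraries. Mrpl18 read 66.6, 57.6 and 53.1 CPM in FPC-LIPA 31, 33 and 34, below the lowest CON-GFP library (68.7 CPM). It read 103, 79.3 and 116 CPM in 36, 37 and 39. Mrpl38 fell by 1.01 on the log2 scale (adjusted p = 0.0183), from 91.6 ± 38.3 to 44.5 ± 14.7 CPM (SD, n = 6), and Mrps5 fell by 0.70 (adjusted p = 0.0146). The CON-GFP values of Mrpl38 ran from 57.8 to 162 CPM.

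Transcript length and GC content were set beside the fold changes. Over all 14604 tested genes with a length, Spearman's rho between the longest annotated transcript and the FPC-LIPA against FPC-GFP fold change was -0.28, and over the 77 genes it was -0.16. For the GC content of that transcript it was -0.40 and -0.12. Without FPC-LIPA 36, 37 and 39 the values for length were -0.17 over 15227 genes and -0.21 over the 77, and those for GC content -0.12 and 0.05. These are correlations across genes of the same libraries, and genes are not independent replicates. Among the 25 genes with transcripts of 488 to 1138 bases the median was 0.91 and 13 rose. Among the 26 of 1219 to 2741 bases it was 0.34 with 11, and among the 26 of 2799 to 7300 bases 0.52 with 9. With a trend on length removed from each library, 24 genes rose and 4 fell, and the median was 0.44. With a trend on GC content removed, 31 rose and 1 fell, and the median was 0.52. The medians of the 3 length classes were 0.15, 0.02 and 0.03 without the 3 libraries.

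**Figure D5:**
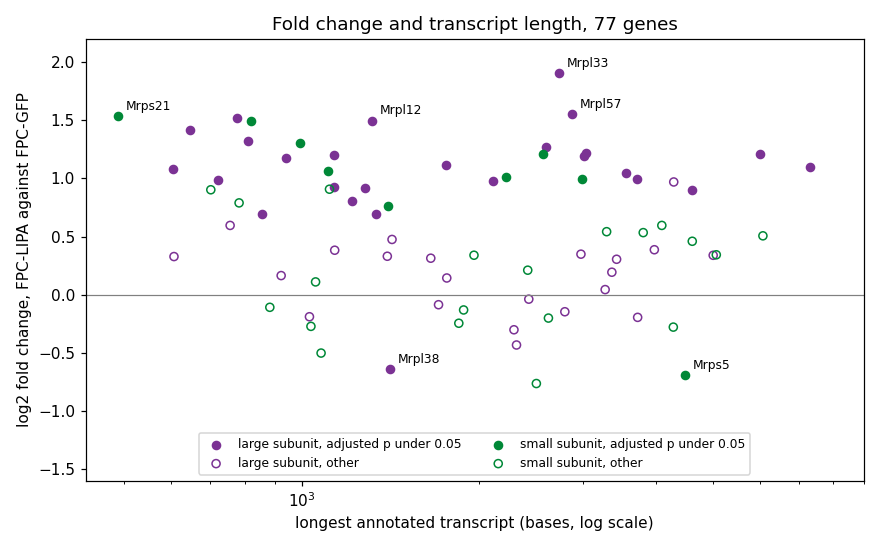
Log2 fold change of FPC-LIPA against FPC-GFP (vertical axis) against the longest annotated transcript in bases (horizontal axis, log scale) for 77 genes; filled points passed an adjusted p of 0.05. Filled points lie across the range of lengths, from Mrps21 at 488 bases upward, and Mrpl38 and Mrps5 lie below 0.

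Genes that work with the mitochondrial ribosome gave a mixed picture. Over all genes tested, 12.9% rose and 10.9% fell with the diet. In FPC-LIPA against FPC-GFP, 14.4% rose and 6.87% fell. Of the 5 proteins of this ribosome with other symbols, 2 fell with the diet and 3 rose in FPC-LIPA against FPC-GFP. Chchd1 had 44.7 CPM in CON-GFP, 26.1 in FPC-GFP and 131 in FPC-LIPA (log2 fold changes of -0.77 and 2.43), and Aurkaip1 had 96.4, 67.5 and 115 CPM. Without FPC-LIPA 36, 37 and 39 the rise of Chchd1 was 0.59 (adjusted p = 0.0714), and none of the 5 passed. Of 24 assembly factors, 1 rose and 2 fell with the diet, and 4 rose and 1 fell in FPC-LIPA against FPC-GFP. These counts were near or below the shares of all genes. The medians of the assembly factors were -0.02 in both comparisons. Fastkd2 and Malsu1, which act on the large subunit or its RNA, rose by 1.39 and 1.23 in FPC-LIPA. Of 15 translation factors, 1 fell with the diet, and 1 rose and 2 fell in FPC-LIPA against FPC-GFP. Gfm1, the elongation factor, and Lrpprc, which stabilizes mitochondrial mRNAs, fell by 0.58 and 0.59, while Slirp, the partner of Lrpprc, rose by 1.54. Of 20 mitochondrial tRNA synthetase and amidotransferase genes, 5 rose and 1 fell with the diet, and 1 rose and 1 fell with LIPA. Of the 6 genes of mitochondrial DNA transcription, Tefm fell with the diet (-0.47) and rose with LIPA (1.22), and Tfam did not pass in either (-0.21 and 0.45). Among 8 regulators of mitochondrial biogenesis, Ppargc1a fell with the diet by 1.17 (adjusted p = 0.00869), and none passed with LIPA. Without the 3 libraries no gene of these lists passed in FPC-LIPA against FPC-GFP, other than 1 synthetase gene that rose. Over all 15246 genes tested there, 169 rose and 17 fell. Fastkd2, Malsu1, Slirp and Tefm then lay at 0.34, 0.09, 0.30 and 0.22, and Gfm1 and Lrpprc at -0.38 and -0.50.

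The mitochondrial genome's own protein genes, which this ribosome translates, fell with the diet. Of 13, 9 fell, against 10.9% of all genes, and mt-Co1 and mt-Cytb had log2 fold changes of -0.93 and -0.91. In FPC-LIPA against FPC-GFP 1 rose and none fell, and the median was -0.16 (none passed and 0.08 without FPC-LIPA 36, 37 and 39). Their share of all counts was 4.89% to 11.5% in CON-GFP and 3.34% to 5.13% in FPC-GFP. It was 4.79%, 5.83% and 5.07% in FPC-LIPA 31, 33 and 34 and 2.76%, 2.33% and 1.61% in 36, 37 and 39. In those 3 libraries the summed level of the nuclear genes of the ribosome was thus at its highest and the share of the mitochondrial mRNAs at its lowest. The ribosomal RNAs of the mitochondrial ribosome, mt-Rnr1 (small subunit) and mt-Rnr2 (large subunit), were in contrast highest in these 3 libraries. Their summed level was 346.7 to 2297 CPM in CON-GFP and 478 to 1082 CPM in FPC-GFP. It was 925, 784 and 800 CPM in FPC-LIPA 31, 33 and 34 and 4576, 11668 and 2920 CPM in 36, 37 and 39. Neither passed with the diet (log2 fold changes of -0.79 and -0.69), and both rose in FPC-LIPA against FPC-GFP, by 2.00 and 2.85 (edgeR adjusted p = 0.0284 and 0.0174). They lay at 0.10 and 0.45 without the 3 libraries and did not pass. The libraries were made from poly(A) RNA. Of 79 cytosolic ribosomal protein genes, 63 fell with the diet (median -0.49) and 65 rose in FPC-LIPA against FPC-GFP (median 1.81). Rpl41 rose from 436 to 4362 CPM there. Of the 79, 20 rose without FPC-LIPA 36, 37 and 39 (median 0.49).

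Markers of other cells moved with the groups as well. Over all genes tested, 12.9% rose with the diet and 14.4% in FPC-LIPA against FPC-GFP. Of 3 leukocyte markers (Ptprc, Cd52 and Coro1a), 3 rose in FPC-LIPA against FPC-GFP, and their sum was 13.3 to 28.9 CPM in CON-GFP, 19.6 to 43.0 in FPC-GFP and 56.9 to 127 in FPC-LIPA. The highest value was that of library 37, while 36 and 39 (68.2 and 58.6 CPM) read like 31, 33 and 34 (56.9, 65.2 and 64.5 CPM). Of 5 Kupffer cell markers, 5 rose with the diet and 2 with LIPA, with sums of 98.3 to 209, 282 to 496 and 366 to 761 CPM in CON-GFP, FPC-GFP and FPC-LIPA. Of 6 monocyte and macrophage markers, 4 and 3 rose, with sums of 52.6 to 119, 139 to 383 and 440 to 681 CPM. The monocyte marker Ly6c2 was at 0 in FPC-LIPA 36 and 39. Of 3 neutrophil markers 2 were tested, S100a8 and S100a9, and both rose in FPC-LIPA against FPC-GFP (median log2 fold change 2.77) and neither with the diet. Their sum with Retnlg was 0.928 to 2.03 CPM in CON-GFP and 0.716 to 2.27 CPM in FPC-GFP. It was 4.50, 3.23 and 3.30 CPM in FPC-LIPA 31, 33 and 34 and 12.4, 15.9 and 12.5 CPM in 36, 37 and 39, so these markers were highest in the same 3 libraries as the mitochondrial ribosomal protein genes. Without these libraries neither passed against FPC-GFP, with a median of 1.34. Of the 4 B cell markers 2 rose with LIPA, with sums of 1.93 to 5.80, 1.15 to 6.87 and 6.01 to 19.1 CPM. T cell, endothelial, stellate and cholangiocyte markers had 1, 0, 1 and 0 genes that rose with LIPA, of 3, 4, 4 and 4 tested, and both NK cell markers were below the filter. Without the 3 libraries 2 leukocyte, 1 Kupffer cell and 1 monocyte and macrophage marker rose against FPC-GFP, and no B cell, T cell or stellate cell marker did. The part of these cells, and of the red blood cells, in the levels of the mitochondrial ribosomal protein genes was not tested.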

How the data were processed

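Poly(A) RNA of 18 mouse livers was sequenced on a NovaSeq. Per the labels and the study's methods, the authors trimmed reads, aligned them with HISAT2 2.1.0 to GRCm38 (mm10), and deposited raw counts per gene from featureCounts (Subread), with 55487 rows. A pair of library kits is named, one stranded, with no statement of which library had which, and multi-gene reads may have been dropped. Of 23 count columns, 5 matched no sample and were not used. Groups came from the labels. Low counts were filtered by filterByExpr, libraries were scaled by TMM, and the 12 libraries of each pair of groups were tested alone with edgeR 4.0.16 (glmQLFit and glmQLFTest, R 4.3.3) with Benjamini-Hochberg adjustment over all tested genes. A gene passed at an adjusted p below 0.05. CPM are TMM-scaled over the 18 libraries. CPM per kilobase divides by exonic length in GENCODE M21 (GRCm38). P-values measure the spread between mice. Libraries of a group differed by more than sampling noise (chi-square per degree of freedom of at least 16.7). The test was tried on counts with known changes: of 100 genes changed 2-fold, 92 were recovered for FPC-GFP against CON-GFP (14307 genes), 96 for FPC-LIPA against FPC-GFP (14620 genes) and 95 for FPC-LIPA against CON-GFP (14433 genes), with 7, 4 and 8 unchanged genes called. These counts were simulated with the same spread for every gene and no split within a group, and only well-counted genes were changed. The recovery therefore does not show how the test performs where libraries of a group split, as in FPC-LIPA.

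Alternatives were DESeq2 (1.42.0) size factors and its Wald test, upper-quartile factors, library size alone, no filter, a minimum of 1 CPM in any 6 libraries, 1 fit to all 18, sample sheet numbers 55 to 68, each library left out, FPC-LIPA 36, 37 and 39 left out (for the other lists, the subunits and the correlations chosen after seeing the data), length or GC trends removed, stricter thresholds, and subunits by structure. The genes, the lists and the 3 libraries left out together were chosen with earlier results of these data known. Named were, in each comparison, the 8 genes of largest change among those that passed in each direction, the 4 of highest CPM in each subunit, those removed by the filter, up to 12 whose groups did not overlap in the diet comparison, and 16 of known role. Of other lists, the 2 most abundant genes and the 2 of largest change that passed could be named. Promoter windows are from RefSeq (GRCm38.p6).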

Additional observations from a re-analysis of the deposited data

Results flagged for a closer look

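In groups of 6 libraries, the highest or lowest value was set apart when its gap to the nearest library was a large share of the group's range. Of 117 sets of values examined, 3 had such a library, and chance gives about 1 in 20. Mrps30 read 21.1 CPM in CON-GFP 6, where its group otherwise spanned 18.1 to 18.8 CPM. Mrpl33 read 9.26 CPM in FPC-GFP 20, where its group otherwise spanned 13.1 to 14.4 CPM. Mrps18b read 38.8 CPM in FPC-GFP 11, against 21.6 to 24.8 CPM in the others, and its log2 fold change in FPC-LIPA against FPC-GFP was -0.50 with that library and -0.35 without it, and passed in neither case. The high values of FPC-LIPA 36, 37 and 39 cannot be seen by this rule, since 3 of 6 libraries share them.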

How the results depend on the processing

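FPC-GFP against CON-GFP gave 16 genes lower and 0 higher. It gave 7 lower at an adjusted p below 0.01, 0 with a 2-fold minimum, 1 with all 18 libraries in 1 fit and 6 within sample sheet numbers 55 to 68. With library size alone 4 were lower and 5 higher, and the median log2 fold change was 0.038. Leaving out each library gave 10 to 20 lower, 0 higher and medians of -0.18 to -0.11. FPC-LIPA against FPC-GFP gave 33 higher and 2 lower. Both counts were 0 at an adjusted p below 0.01, within sheet numbers 55 to 68 and without FPC-LIPA 36, 37 and 39, when the median was 0.053. The lower count was 0 with a 2-fold minimum, 1 with upper-quartile factors, library size alone, no filter or the GC trend removed, and 4 with all 18 libraries in 1 fit or the length trend removed. Leaving out each library gave 13 to 43 higher, 1 to 4 lower and medians of 0.45 to 0.68. FPC-LIPA against CON-GFP gave 13 higher and 2 lower. Higher counts were 0 at an adjusted p below 0.01, within sheet numbers 55 to 68 and without the 3 libraries, 6 with a 2-fold minimum, 8 with the length trend removed, 22 by DESeq2's Wald test, 25 with upper-quartile factors, 28 with library size alone and 30 with all 18 libraries in 1 fit. Lower counts were 0 at an adjusted p below 0.01 and with library size alone, 1 with a 2-fold minimum, within the sheet numbers and without the 3 libraries, and 4 with the GC trend removed. Without the 3 libraries the median was -0.089, and Mrpl12 lay at -0.017 and Mrpl33 at -0.19. Leaving out each library gave 3 to 31 higher, 2 to 4 lower and medians of 0.31 to 0.51. The numbers called over all genes also moved between these settings. The cause of these shifts was not tested. By structure, the mean large to small ratios were 2.76, 2.64 and 3.18 in CON-GFP, FPC-GFP and FPC-LIPA. No paired analysis was possible because mouse numbers differ between groups. Over the named genes, 1924 of 2380 values kept their direction and their side of the threshold, 243 lost and 110 gained a call, 101 changed sign with no call in either setting, and 2 that were called changed sign (Mrpl12 and Mrpl33, above). The shallowest library had 16632146 counts, and Mrpl53 alone was below the filter.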
